A study of Homo sapiens with 2 samples.

Results

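Transcripts of regulators that set the epithelial or mesenchymal state of a cell were compared between ACHN cells with Kindlin-2 shRNA and ACHN cells with control shRNA. The set named 10 genes: the repressors SNAI1, SNAI2, ZEB1, ZEB2 and TWIST1, and the epithelial regulators ELF3, GRHL2, ESRP1, ESRP2 and KLF5. A gene was taken from the transcript cluster (the probe set that stands for a gene on this array) whose annotation held its symbol alone, and from the brightest cluster where there were several. That rule found 9 of the 10 among 18417 genes in all. ESRP1 is not analysed here. ZEB2 had 2 clusters, of which the dimmer, with log2 values of 4.44 in the Kindlin-2 shRNA array and 4.33 in the control array, was set aside.

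ACHN, an established line of human kidney cancer cells, is labelled as clear cell carcinoma. One group was ACHN with Kindlin-2 shRNA and the other ACHN with control shRNA, each measured on 1 Affymetrix Human Gene 1.0 ST array. Cells of both groups had been transfected and kept in medium with serum and G418, the drug that selects transfected cells. The labels do not say how many clones the cultures came from or which shRNA sequences were used. With 1 array per group there is no replicate check, no error and no test, and every difference below describes these 2 arrays. The number of arrays limits the precision.

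Epithelial-mesenchymal transition (EMT) is the switch in which cells joined by E-cadherin lose their junctions and polarity and become migratory. SNAI1, SNAI2, ZEB1 and ZEB2 are zinc-finger proteins that bind E-box sequences such as CACCTG in promoters of epithelial genes and recruit corepressors. TWIST1 is a basic helix-loop-helix factor that acts on the same program. ELF3 is an epithelial ETS factor, GRHL2 a grainyhead factor that maintains junction genes, KLF5 a zinc-finger factor of epithelia, and ESRP1 and ESRP2 are RNA-binding proteins that direct epithelial splicing. GRHL2 and ZEB1 repress one another, and the miR-200 family of microRNAs holds down ZEB1 and ZEB2.

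The targeted gene FERMT2, which encodes Kindlin-2, had a log2 value of 8.26 in the Kindlin-2 shRNA array and 9.37 in the control array, so its level was 46.4% of control. Of 14 measured renal epithelial markers 10 reached the floor described below. The nephron factor PAX8 had values of 11.29 and 11.43 in the Kindlin-2 shRNA and control arrays. The brush border receptors LRP2 and CUBN and the water channel AQP1, markers of the proximal tubule, were below the floor on both arrays. Endothelial and leukocyte markers were mostly below it, with 1 of 9 and 2 of 9 that reached it. Most fibroblast and smooth muscle markers, 8 of 12, reached it. Of these, COL1A2 and COL3A1 did so by only 0.0011 and 0.0006 log2 units. Their summed unlogged values in the Kindlin-2 shRNA and control arrays were 478.0 and 493.8 for endothelial markers, 1632 and 952 for leukocyte markers, and 4378 and 5709 for fibroblast and smooth muscle markers. The part of these markers in the results below was not tested.

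The 9 measured members did not share one direction. ELF3 was 5.16-fold lower in the Kindlin-2 shRNA array and was the 1 member that differed by at least 2-fold. None was at least 2-fold higher. Over all 18417 genes, 0.896% were lower by that factor or more and 1.01% were higher by it. SNAI2 was 1.56-fold lower and the other members differed by less than 1.5-fold. At 1.5-fold, 2 of 9 members were lower and 0 higher, against 3.81% of all genes lower and 3.77% higher. Of the 9 members, 6 had a difference within 1 SD of that of all genes of similar brightness, where the SD in 10 brightness bins lay between 0.22 and 0.43 on the log2 scale. The exceptions were ELF3, SNAI2 and SNAI1. The share of all genes within 1 SD was not computed, so this count does not set the members apart. A difference as large as that of SNAI1, a dim gene, was found in 20.3% of all genes. In these bulk cultures, fewer cells with a transcript and less of it per cell cannot be told apart.

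**Figure D1:**
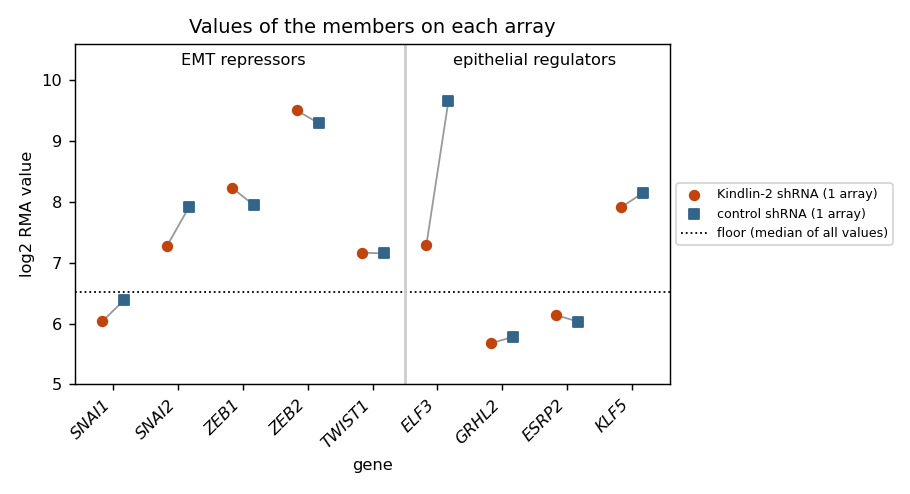
Log2 RMA value (vertical axis) of each measured member, with the Kindlin-2 shRNA array as a circle to the left of the control shRNA array as a square and 1 array per group. The dotted line is the floor at 6.52. ELF3 shows the widest gap, with 7.30 in the Kindlin-2 shRNA array and 9.66 in the control array.

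Whether a transcript was measured above the dim range was judged by a floor set at a log2 value of 6.52, the median over all clusters and both arrays. A gene was called above the floor when the higher of its 2 values reached it. SNAI2, ZEB1, ZEB2, TWIST1, ELF3 and KLF5 were above it on both arrays. SNAI1, GRHL2 and ESRP2 were below it on both. The table carries no detection calls, so it cannot be said whether these last genes were absent or only dim, and differences between dim values are compressed.

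Among the epithelial regulators, ELF3 had a log2 value of 7.30 in the Kindlin-2 shRNA array and 9.66 in the control array. Its level was thus 19.4% of control, and 9 of the 11822 genes above the floor had a larger decrease. Of all 18417 genes, 0.0923% differed by at least as much in either direction. Both of its values were above the floor, the lower one by 0.77 log2 units. Without detection calls it cannot be said how far that lower value lies above background. On chromosome 1, where ELF3 lies, genes above the floor had a median difference of 0.03. The 50 nearest measured genes had a median of 0.09, and with that median subtracted the difference of ELF3 was -2.45, against -2.37 as deposited.

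The promoter of ELF3 held the E-box CACCTG once, and the sequence is shown because ELF3 is the member with the largest difference and this motif is the one that SNAI and ZEB factors recognise. The window runs from 250 bases before to 50 bases after the RefSeq start of the gene (GRCh38.p14, chr1:202010337-202010636, plus strand). Capitals mark the motif, which begins 120 bases before the start.
ELF3 promoter: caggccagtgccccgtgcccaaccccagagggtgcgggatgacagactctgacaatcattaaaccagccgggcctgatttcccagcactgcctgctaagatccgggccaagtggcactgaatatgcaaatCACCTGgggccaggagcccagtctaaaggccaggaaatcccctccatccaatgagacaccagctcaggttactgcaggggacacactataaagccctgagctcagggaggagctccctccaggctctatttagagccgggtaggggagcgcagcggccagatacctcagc

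CACCTG or its reverse complement CAGGTG was present in 20.6% of all 35116 promoter windows of this length in the RefSeq table. Promoter windows were matched for 4 members, ELF3, KLF5, ZEB1 and ZEB2. Neither the 2 KLF5 windows nor the ZEB2 window held the motif, and 2 of the 7 ZEB1 windows did. A match describes letters in a window and does not show that a factor binds there.

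KLF5 had values of 7.91 in the Kindlin-2 shRNA array and 8.15 in the control array, a difference of -0.24 that 35.7% of all genes equalled or exceeded in size. GRHL2 had 5.68 in the Kindlin-2 shRNA array and 5.78 in the control array, a difference of -0.10. ESRP2 had 6.14 in the Kindlin-2 shRNA array and 6.03 in the control array, a difference of 0.11. Differences as large as those of GRHL2 and ESRP2 were found in 67.9% and 67.3% of all genes. The median difference of the 4 measured epithelial regulators was -0.17, beside -0.01 over all genes. It covers the large decrease of ELF3 and 3 differences of at most 0.24 in size.

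**Figure D2:**
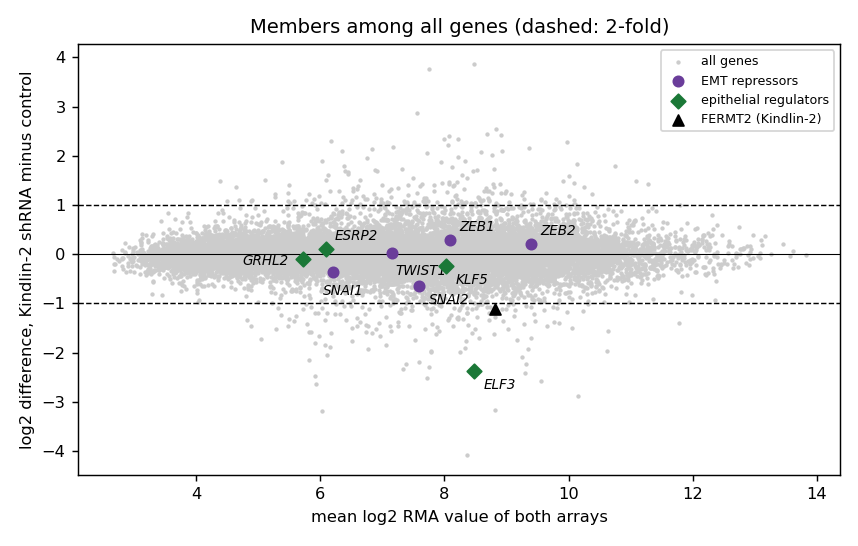
Log2 difference, Kindlin-2 shRNA minus control shRNA (vertical axis), against the mean log2 RMA value of both arrays (horizontal axis) for all 18417 genes in grey, with the members and FERMT2 marked. Dashed lines mark 2-fold. ELF3 lies at -2.37, with 9 of the genes above the floor lower still, and the repressors lie between -0.64 and 0.29.

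Among the repressors, the SNAI genes had differences below 0 and the ZEB genes above 0, those of ZEB1 and ZEB2 within 1 SD of genes of similar brightness. SNAI2, also called SLUG, had a log2 value of 7.28 in the Kindlin-2 shRNA array and 7.92 in the control array, which put it at 64.2% of control. A difference of that size or more, in either direction, was found in 6.14% of all genes. SNAI1, also called Snail, had 6.03 in the Kindlin-2 shRNA array and 6.39 in the control array, a difference of -0.35 between dim values. On chromosome 20, where SNAI1 lies, genes above the floor had a median difference of 0.26. With the median of its 50 nearest genes above the floor (0.33) subtracted, SNAI1 differed by -0.69. SNAI2 differed by -0.69 with the median of its own neighbours (0.05) subtracted. Whether a shift of brighter neighbours applies in full to a dim gene such as SNAI1 was not tested.

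ZEB1 had 8.24 in the Kindlin-2 shRNA array and 7.95 in the control array, and was 1.22-fold higher. ZEB2 had 9.51 in the Kindlin-2 shRNA array and 9.30 in the control array, and was 1.16-fold higher. Differences at least as large as these were found in 27.6% and 41.3% of all genes. TWIST1 had 7.17 in the Kindlin-2 shRNA array and 7.15 in the control array, a difference of 0.01, although the genes of its chromosome, 7, had a median of -0.22. With that median subtracted TWIST1 differed by 0.23. Over the 5 repressors, 2 were lower and 3 higher, with a median of 0.01 beside -0.01 over all genes.

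Relatives of the members differed by less than ELF3 did. In the ESE and ELF branch of the ETS family, none of 6 genes differed by 1.5-fold in either direction. Of all genes, 3.81% were lower and 3.77% higher by that factor. Counts of 0 in lists this short, here and in the families below, lie near those shares. EHF, another ETS factor of epithelia, had 4.42 in the Kindlin-2 shRNA array and 4.40 in the control array, both below the floor. ELF1, a widely expressed relative, had 10.67 in the Kindlin-2 shRNA array and 10.77 in the control array. None of the 16 other KLF genes reached 1.5-fold, and 12 of them were below 0, with a median of -0.13. Of the 13 above the floor, 10 were below 0, against 53.2% of all genes above the floor. With chromosome medians subtracted 8 of the 13 were below 0, and with neighbour medians subtracted 7, so the count depends on the setting. KLF4 differed by 0.26, with a control value below the floor, and KLF6 by 0.09. None of the 5 other grainyhead genes reached 1.5-fold, GRHL1 differed by -0.15, and all but TFCP2 and UBP1 were below the floor. The paralogs SNAI3, TWIST2, SCRT1 and SCRT2 differed by between -0.21 and 0.04.

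**Figure D3:**
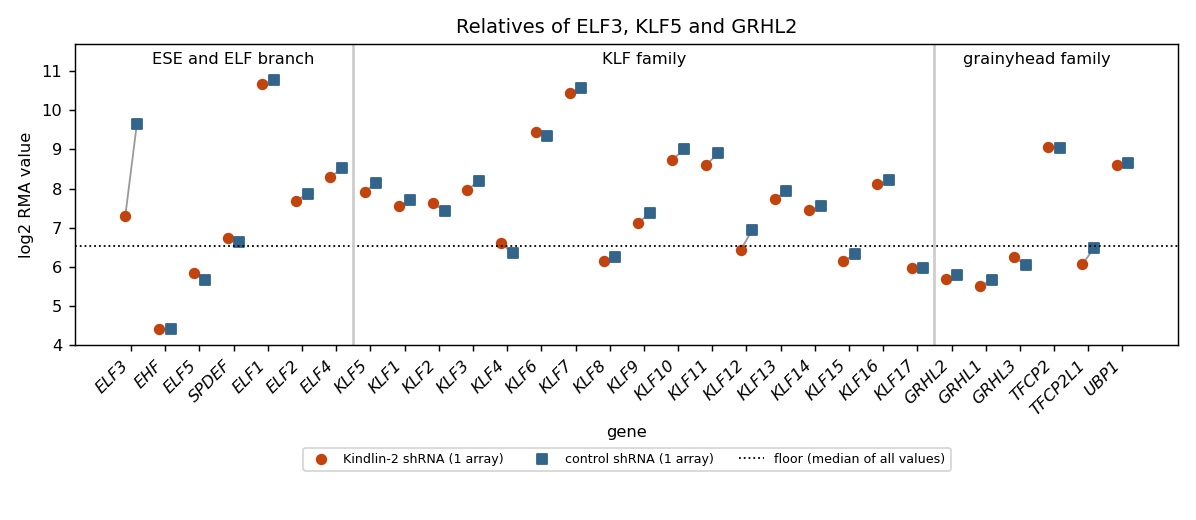
Log2 RMA value (vertical axis) of ELF3, KLF5 and GRHL2, each followed by its measured relatives, with the Kindlin-2 shRNA array as a circle to the left of the control shRNA array as a square. The dotted line is the floor at 6.52. Among the relatives of ELF3 the differences run from -0.24 to 0.18, beside -2.37 for ELF3 itself.

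Among 9 measured epithelial transcription factors of other families, TFAP2A, an AP-2 factor of surface ectoderm and epithelia, was 2.13-fold lower, with 7.61 in the Kindlin-2 shRNA array and 8.70 in the control array. None of the others reached 1.5-fold, and OVOL2, a zinc-finger repressor of ZEB1, was dim and differed by -0.02. Among 13 other transcription factors that promote EMT, ETS1 was 2.07-fold higher, with 9.57 in the Kindlin-2 shRNA array and 8.52 in the control array, and no gene was 1.5-fold lower. Their median difference was -0.06. At 1.5-fold the shares of all genes were 3.81% lower and 3.77% higher, so 1 gene in a list this short does not set the list apart.

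Genes that the repressors need, and genes that set their protein level, mostly differed little. Of 15 measured corepressors and chromatin modifiers, 1 was at least 1.5-fold lower and 0 higher, against 3.81% and 3.77% of all genes. Their median was -0.06. The 1 gene was NR6A1, an orphan nuclear receptor and itself a DNA-binding repressor, which was 1.81-fold lower. The genes of its chromosome, 9, had a median of -0.31, and with that subtracted NR6A1 differed by -0.54, which is under 1.5-fold. Of 11 regulators of SNAI1 and SNAI2 protein turnover, LOXL2, a lysyl oxidase reported to stabilise SNAI1 protein, was 2.04-fold higher. No other reached 1.5-fold, against the same 3.81% of all genes lower and 3.77% higher. Its log2 values were 10.62 in the Kindlin-2 shRNA array and 9.59 in the control array. Protein levels were not measured.

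The miR-200 family pairs with ZEB1 and ZEB2 messages through its seed, bases 2 to 8 of the mature RNA. The 5 family members fall into 2 seed groups. The mature sequences are shown, from RefSeq (GRCh38.p14), because this family pairs with the ZEB messages through these seeds, with the seed in capitals.
hsa-miR-200b-3p: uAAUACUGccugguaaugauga
hsa-miR-200c-3p: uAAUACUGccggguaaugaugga
hsa-miR-429: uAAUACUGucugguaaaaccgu
hsa-miR-200a-3p: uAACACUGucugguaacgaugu
hsa-miR-141-3p: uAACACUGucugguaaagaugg

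The array reads RNA from the miRNA genes and does not report mature microRNA. Of the 5 genes, MIR200B alone was above the floor, with 7.15 in the Kindlin-2 shRNA array and 6.98 in the control array. MIR200A had 4.35 and MIR141 had 4.19 in the Kindlin-2 shRNA array, against 4.64 and 4.47 in the control array. MIR200C and MIR429 differed by 0.03 and -0.01. None of the 5 reached 1.5-fold, against 3.81% of all genes lower and 3.77% higher.

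Epithelial genes described as targets of the repressors through E-boxes were mostly lower in the Kindlin-2 shRNA array. Of 24 measured genes 18 were below 0, 9 were lower by at least 1.5-fold and 0 were higher by it, against 3.81% and 3.77% of all genes. Their median difference was -0.27, beside -0.01 over all genes. Over the 20 genes above the floor it was -0.49, and 16 were below 0. The values over all genes above the floor were -0.02 and 53.2%. CDH1, which encodes E-cadherin, had 9.64 in the Kindlin-2 shRNA array and 11.60 in the control array, or 25.6% of control. CXADR, an adhesion receptor of tight junctions, had 6.26 in the Kindlin-2 shRNA array, below the floor, and 8.49 in the control array. The tight junction scaffold TJP3 was 1.87-fold lower and the polarity gene LLGL2 1.85-fold lower. EPCAM, an epithelial adhesion molecule, differed by 0.25 in the brighter of its 2 clusters and did not follow the list. In this list KRT18 also had 2 clusters and DDR1 had 3, and the brightest was used. Where on the genome each cluster lies was not checked, so these values may not stand for the named gene alone. With the mean over clusters the median of the 20 genes above the floor was -0.45.

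The promoters of JUP and CRB3, from this list, are shown because they hold the motif more than once, while their genes differed unequally. JUP, which encodes the junction protein plakoglobin, was 1.64-fold lower, with 9.44 in the Kindlin-2 shRNA array and 10.15 in the control array. CRB3, a polarity gene, had 8.01 in the Kindlin-2 shRNA array and 8.20 in the control array. Both were chosen after their values were seen. Of 2 JUP windows, the one shown (GRCh38.p14, chr17:41785927-41786226, minus strand) holds 2 copies that begin 54 and 43 bases before the start, and the other holds 0. The CRB3 window (GRCh38.p14, chr19:6464021-6464320, plus strand) holds 5, the first 228 bases before the start. Capitals mark CACCTG and CAGGTG.
JUP promoter: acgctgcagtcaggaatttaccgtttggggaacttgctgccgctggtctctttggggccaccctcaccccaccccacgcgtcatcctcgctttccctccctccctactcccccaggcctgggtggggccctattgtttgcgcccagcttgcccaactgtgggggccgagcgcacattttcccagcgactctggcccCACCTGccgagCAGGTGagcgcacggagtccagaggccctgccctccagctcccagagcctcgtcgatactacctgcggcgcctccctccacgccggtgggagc
CRB3 promoter: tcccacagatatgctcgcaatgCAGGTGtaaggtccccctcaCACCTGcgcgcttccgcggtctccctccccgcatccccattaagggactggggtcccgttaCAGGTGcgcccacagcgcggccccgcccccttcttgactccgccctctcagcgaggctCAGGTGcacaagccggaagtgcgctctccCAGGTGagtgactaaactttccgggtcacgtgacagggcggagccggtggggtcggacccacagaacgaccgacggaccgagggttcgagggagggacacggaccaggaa

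Epithelial genes described as targets of grainyhead factors or ELF3 went both ways. Of 19 measured genes 12 were below 0, 5 were lower by at least 1.5-fold and 2 higher by it, against the same 3.81% and 3.77% of all genes. Their median was -0.14. Over the 13 genes above the floor it was -0.50, and 9 were below 0. The values over all genes above the floor were -0.02 and 53.2%. Of the grainyhead and ELF3 targets, 4 above the floor were also in the E-box list, CDH1 and TJP3 among them. MPZL2, an epithelial adhesion protein of the immunoglobulin family, had 5.64 in the Kindlin-2 shRNA array, below the floor, and 7.39 in the control array. The receptor ERBB3 was 2.58-fold lower, and its values of 6.57 in the Kindlin-2 shRNA array and 7.94 in the control array were both above the floor. Over the genes of chromosome 12, where ERBB3 lies, the median was -0.21. PRSS8, the membrane protease prostasin, was 2.10-fold higher and the cyclin CCND1 1.52-fold higher.

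**Figure D4:**
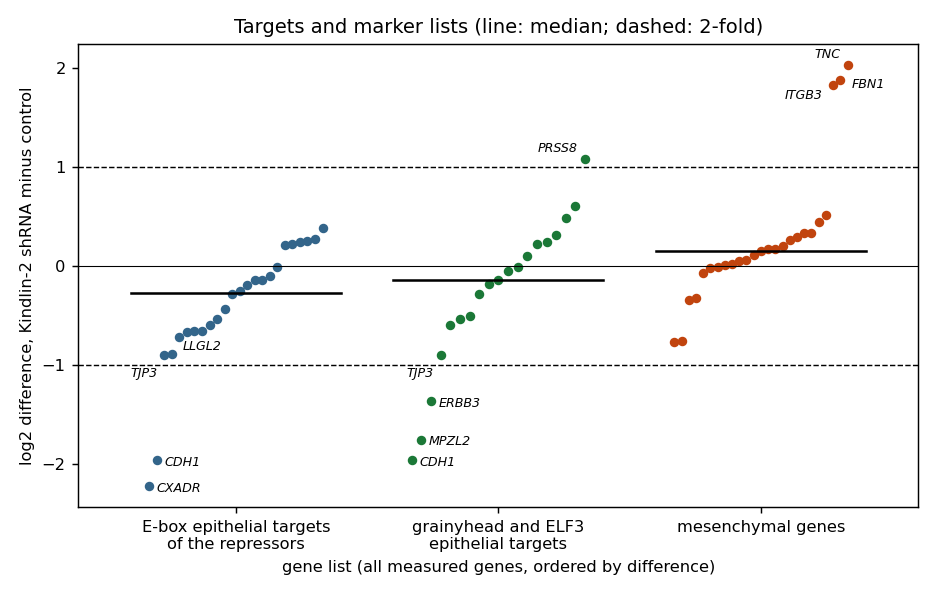
Log2 difference, Kindlin-2 shRNA minus control shRNA (vertical axis), of every measured gene in 3 lists (horizontal axis), each point a gene and the bar the median of the list. Dashed lines mark 2-fold. The medians are -0.27 for the E-box targets, -0.14 for the grainyhead and ELF3 targets and 0.15 for the mesenchymal genes. Over genes above the floor alone they are -0.49, -0.50 and 0.20.

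Mesenchymal genes had a median of 0.15 over 25 measured genes, of which 18 were above 0. At 1.5-fold, 3 were higher and 2 lower, against 3.77% and 3.81% of all genes. The 3 were the matrix protein TNC (4.07-fold higher), fibrillin-1, encoded by FBN1 (3.66-fold), and the integrin subunit ITGB3 (3.55-fold). The pericyte receptor gene PDGFRB was 1.71-fold lower, with a Kindlin-2 shRNA value of 6.31 that is below the floor, and the smooth muscle actin gene ACTA2 1.70-fold lower. Both are also in the list of fibroblast and smooth muscle markers, in which RGS5 was 2.24-fold lower. N-cadherin, vimentin and fibronectin differed by less than 1.5-fold. N-cadherin (CDH2) had 10.62 in the Kindlin-2 shRNA array and 10.61 in the control array. Vimentin (VIM) had 12.68 in the Kindlin-2 shRNA array and 12.48 in the control array, and fibronectin (FN1) differed by 0.26.

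ESRP proteins choose between alternative exons, which gene-level values cannot show. Of 15 measured genes with ESRP-regulated exons, 1 was at least 1.5-fold lower and 0 higher at the level of the whole gene. The shares of all genes were 3.81% and 3.77%. The median of the 15 was -0.10. The 1 gene was the growth factor receptor FGFR2, whose epithelial isoform depends on ESRPs. Its values were 6.46 in the Kindlin-2 shRNA array, below the floor, and 8.98 in the control array. CD44, whose variant exons ESRP1 retains, had 12.07 in the Kindlin-2 shRNA array and 11.55 in the control array. CTNND1 is not analysed here. None of 13 other splicing regulators reached 1.5-fold as deposited, with QKI at 0.01 and RBFOX2, which favours mesenchymal exons, at -0.27. RBM47 came closest, 1.496-fold lower, with 10.72 in the Kindlin-2 shRNA array and 11.30 in the control array. With the median of its chromosome, 4, subtracted RBM47 differed by -0.62, which is over 1.5-fold.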

How the data were processed

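Each of the 2 groups (Kindlin-2 shRNA, control shRNA, by the shRNA label) had 1 array. The authors deposited log2 values made with RMA, per the submitters' processing notes, which name Affymetrix Expression Console 1.4.1; the log2 scale was judged from the range of 2.13 to 14.04 over 33297 transcript clusters. RMA corrects background, equalises the arrays and summarises probes. The sources used here do not give the arrays normalised together, the library file or the annotation build.

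Symbols came from GEO's platform annotation, updated through Entrez IDs to RefSeq (GRCh38.p14). Of the clusters, 19460 had 1 symbol (19429 matched by ID), 1754 several and 12083 none; only the first kind was used. Differences are Kindlin-2 shRNA minus control shRNA on the log2 scale, computed with Python 3.11.15 and pandas 2.3.3 with no test, and fold counting was tested on simulated data. Chromosomes come from RefSeq and medians of a chromosome or of neighbours use genes above the floor.

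Members and gene lists were chosen with earlier results of these data known. Named were all members, FERMT2, up to 4 genes per direction and list that were above the floor and differed by 1.5-fold, and 16 genes fixed by name; other names were chosen after their values were seen. With 2 arrays no gene can be named for likeness of pattern. Alternatives were other normalisations, thresholds, floors and cluster rules, and subtraction of chromosome or neighbour medians.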

Additional observations from a re-analysis of the deposited data

How the results depend on the processing

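No paired analysis was possible because each group has 1 array. Since there are no replicates, a move of a single gene was judged by the SD of the difference over genes of similar brightness. A move of a median was judged by the SD over all genes above the floor. A count was called moved when it changed by more than 1.5-fold or to or from 0. Under the 6 alternatives of normalisation, cluster choice and chromosome, ELF3 stayed between -2.45 and -2.34, SNAI2 between -0.69 and -0.59, ZEB1 between 0.26 and 0.32 and ZEB2 between 0.16 and 0.22. GRHL2 ranged from -0.16 to 0.05, so its sign depends on the setting, and SNAI1 moved to -0.69 with neighbour medians subtracted. The median of the repressors ranged from 0.01 to 0.17, and their mean was -0.10. The count of members at least 2-fold lower was 2 at a threshold of 1.5-fold and 1 under every other alternative run, and the count higher was 0 under all. The median of the epithelial regulators was -1.30 over the 2 members above the floor and -0.65 when the mean replaced the median, since ELF3 then weighs more. Among lists, over genes above the floor and with settings added after seeing the data, the E-box targets lay between -0.54 and -0.31, the grainyhead and ELF3 targets between -0.53 and -0.33, mesenchymal genes between 0.17 and 0.24 and the KLF family between -0.13 and -0.04. The medians of the grainyhead family and of the other splicing regulators changed sign under 2 of 6 settings each, and that of fibroblast and smooth muscle markers under 3.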

Other observations

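Genes of signals that induce EMT differed in both directions. Of 26 measured, 3 were at least 1.5-fold lower and 2 at least 1.5-fold higher, against 3.81% and 3.77% of all genes. The median of the 26 was -0.09, beside -0.01 over all genes. The ligand gene TGFB2 was 2.15-fold higher, with 10.63 in the Kindlin-2 shRNA array and 9.53 in the control array, while the receptor gene TGFBR1 was 1.56-fold lower. The Notch receptor gene NOTCH1 had 8.12 in the Kindlin-2 shRNA array and 8.92 in the control array, and its target HES1 was 1.69-fold lower. The genes of chromosome 9, where NOTCH1 and TGFBR1 lie, had a median of -0.31. With that subtracted NOTCH1 differed by -0.49 and TGFBR1 by -0.33, both under 1.5-fold, while with the median of its 50 nearest measured genes subtracted NOTCH1 differed by -0.61, which is over it. ID2, an inhibitor of basic helix-loop-helix factors, was 1.51-fold higher.

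Of 14 measured renal epithelial markers 11 were below 0, with a median of -0.14. Of the 10 above the floor, 8 were below 0 and the median was -0.42. Under the alternative settings that median lay between -0.44 and -0.24. With chromosome or neighbour medians subtracted, 7 of the 10 were below 0. Over all genes above the floor 53.2% were below 0 and the median was -0.02. At 1.5-fold, 2 renal markers were lower and 1 higher, against 3.81% and 3.77% of all genes. The kidney cadherin genes went opposite ways. CDH6 had 7.32 in the Kindlin-2 shRNA array and 6.41 in the control array, and CDH16 had 6.26 in the Kindlin-2 shRNA array and 7.10 in the control array. The lower value of each was below the floor. The nephron factor PAX2 was 1.58-fold lower, with 9.09 in the Kindlin-2 shRNA array and 9.75 in the control array. Of the leukocyte markers CD68, which is also a lysosomal gene, was 2.37-fold higher and alone reached 1.5-fold.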
